A study of Mus musculus with 6 samples.

Results

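The genes described here are 9 genes known from brown adipose tissue: Ucp1, Cidea, Cox8b, Cox7a1, Elovl3, Adrb3, Dio2, Otop1 and the long non-coding RNA Lncbate10. They were chosen from the brown adipocyte programme because several of them were strongly higher in the Pck1-CKO arrays of this very data set, so their differences between genotypes are given as descriptions without a test. The array carries 11 probes for them, found through the RefSeq accession of each probe, among 56605 probes that name 23785 gene symbols in all. All 9 were among the 17136 genes tested, although 5 of them were not well above background on every WT array and passed the filter through the Pck1-CKO arrays, on which all 9 were well above background. The measurements are from whole mouse kidney, hybridised to Agilent arrays in 1 colour (Cy3). The 3 Pck1-CKO arrays were from mice with floxed alleles of Pck1 on both chromosomes and a γGT-Cre transgene, which deletes in renal proximal tubule cells. Pck1 codes for phosphoenolpyruvate carboxykinase of the cytosol, which catalyses a step of gluconeogenesis. The 3 WT arrays were from littermates matched for age and sex. Per the labels, the breeding gave control animals that carried floxed Pck1 on one or both chromosomes without Cre, or on one chromosome together with the γGT-Cre transgene. Which of these the WT arrays came from was not stated. All mice were C57BL/6J and were killed at 32 weeks of age.

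Brown adipocytes, and the beige adipocytes that can appear within white fat, turn chemical energy into heat. Noradrenaline released from sympathetic nerves acts on the β-adrenergic receptors of the cell, cAMP rises, stored fat is broken down, and the fatty acids both fuel the mitochondria and activate UCP1, which lets protons leak back across the inner mitochondrial membrane without making ATP. The kidney is surrounded by perirenal fat, in which brown-like adipocytes are known in mice.

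Between 37118 and 38708 probes per array were well above background, the 75th percentile of the processed signal lay between 528.9 and 583.1, between 46 and 94 spots were flagged as outliers, and 0 spots were saturated. WT 1 had the fewest probes well above background, the lowest percentile and the most flagged spots. Differences of the 9 genes that rest on it are given with and without it, and correlations only with it. Pck1 itself was not lower in the set labelled Pck1-CKO. It had a normalised log2 signal of 6.44, 6.60 and 6.90 in the Pck1-CKO arrays, against 6.29, 6.32 and 5.63 in the WT arrays, a difference of 0.56 ± 0.22 (SE, n = 3 each; limma adjusted p = 0.152). The array has 1 Pck1 probe, and its place relative to the floxed exons was not stated, so it does not check the labels. Directions therefore follow the labels, Pck1-CKO relative to WT. Markers of the proximal tubule were all present: 10 of 10 were tested, 0 passed the threshold in either direction (at an unadjusted limma p under 0.05, 2 were higher and 1 lower), and their summed scaled signal was 1486 to 1518 in the Pck1-CKO arrays and 1458 to 1542 in the WT arrays. Whether the arrays of a genotype are separate mice was not stated, so p-values cover the spread between these samples, which may be technical. With 3 arrays a group, the number of arrays sets how precise each value is.

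Promoter sequences of 5 of the 9 genes were searched here (RefSeq, GRCm38.p6). Each covers 250 bases before to 50 bases after the annotated start, on the strand of the gene. They are shown for 4 genes that span the responses described below: Ucp1, the largest difference (chr8:83290098-83290397, plus strand), Dio2, a smaller one (chr12:90738989-90739288, minus strand), Cox8b (chr7:140900397-140900696, minus strand) and Cox7a1, which hardly differed (chr7:30183921-30184220, plus strand). Capitals mark matches to the motifs searched.
Ucp1: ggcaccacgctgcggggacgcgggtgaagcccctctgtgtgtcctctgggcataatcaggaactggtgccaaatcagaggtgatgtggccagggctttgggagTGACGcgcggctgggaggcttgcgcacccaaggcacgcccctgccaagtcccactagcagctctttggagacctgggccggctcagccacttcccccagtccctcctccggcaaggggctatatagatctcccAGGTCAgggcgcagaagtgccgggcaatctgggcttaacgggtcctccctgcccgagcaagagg
Dio2: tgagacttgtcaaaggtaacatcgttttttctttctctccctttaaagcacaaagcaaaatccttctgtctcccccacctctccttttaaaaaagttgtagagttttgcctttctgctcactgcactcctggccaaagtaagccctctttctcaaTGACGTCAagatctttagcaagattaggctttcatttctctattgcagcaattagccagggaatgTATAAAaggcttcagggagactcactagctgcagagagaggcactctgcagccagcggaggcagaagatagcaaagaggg
Cox8b: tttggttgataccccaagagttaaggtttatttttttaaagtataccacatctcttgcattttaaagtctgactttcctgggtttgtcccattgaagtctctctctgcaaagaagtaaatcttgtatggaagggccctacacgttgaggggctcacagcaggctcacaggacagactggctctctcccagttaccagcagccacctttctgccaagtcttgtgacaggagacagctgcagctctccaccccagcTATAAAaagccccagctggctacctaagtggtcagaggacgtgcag
Cox7a1: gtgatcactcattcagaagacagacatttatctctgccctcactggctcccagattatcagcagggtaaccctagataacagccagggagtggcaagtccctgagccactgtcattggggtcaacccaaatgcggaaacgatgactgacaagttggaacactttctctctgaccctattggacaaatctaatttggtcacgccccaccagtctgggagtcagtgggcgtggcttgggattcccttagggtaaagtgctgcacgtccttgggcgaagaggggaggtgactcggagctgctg
The motifs were the cAMP response element TGACGTCA, its core TGACG, the nuclear receptor element AGGTCA and its direct repeat with 1 base between the copies, the EBF palindrome and the TATA box TATAAA, each searched on both strands. TGACG lies within TGACGTCA, and AGGTCA within its direct repeat. The Dio2 window holds TGACGTCA at position -95 and TATAAA at position -30, counted from the start. The full element TGACGTCA occurred in 1.79% of 32851 promoter windows of the same length, and TATAAA in 13.6%. The Ucp1 window holds TGACG at position -147 and AGGTCA at position -14, and these stood in 20.8% and 16.3% of all windows. Cox8b has TATAAA at position 4, just inside the transcribed part. No searched motif is in the Cox7a1 or Otop1 window. The direct repeat and the EBF palindrome were in none of the 5 windows, and in 0.0396% and 0.904% of all windows. These matches describe letters in the window and are neither binding sites nor causes.

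Ucp1, the uncoupling protein itself, differed most among the 9 genes. Its processed signal was 7992, 7659 and 6024 in the Pck1-CKO arrays, against 44.0, 406 and 357 in the WT arrays. On the normalised log2 scale, on which 0 is the 75th percentile of the array, this was 3.84, 3.73 and 3.37 in the Pck1-CKO arrays and -3.59, -0.47 and -0.70 in the WT arrays. The Pck1-CKO arrays lay close together, all of them above every WT array, while the WT arrays spread widely because WT 1 lay 3.0 below the mean of the other WT arrays. The difference was 5.23 ± 0.85 (SE, n = 3 per group), or 37.5-fold, and without WT 1 it was 4.23, or 18.7-fold. In whole tissue, more cells of a type and more RNA per cell cannot be told apart, for this gene and for those below.

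Cidea encodes a lipid droplet protein of brown adipocytes that promotes fat storage in droplets. On the log2 scale it had 3.42, 3.36 and 3.77 in the Pck1-CKO arrays, against -2.01, 0.37 and 0.72 in the WT arrays. The groups did not overlap, and WT 1 was again by far the lowest. The difference was 3.83 ± 0.72, or 14.2-fold, and 2.97, or 7.85-fold, without WT 1. Cox8b encodes the muscle and brown fat form of a subunit of cytochrome c oxidase, the last enzyme of the respiratory chain. Its signal was 2.90, 2.86 and 3.38 in the Pck1-CKO arrays, against -2.36, -0.01 and -0.15 in the WT arrays. As for Cidea, Pck1-CKO 3 was the highest array and WT 1 the lowest, with no overlap. The difference was 3.88 ± 0.65, or 14.7-fold, and 3.12, or 8.70-fold, without WT 1.

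Cox7a1 encodes another muscle and brown fat form of a cytochrome c oxidase subunit and was the exception among the 9 genes. It was the steadiest of them, with 4.20, 4.21 and 4.28 in the Pck1-CKO arrays and 4.20, 4.20 and 4.16 in the WT arrays. The groups overlapped, since Pck1-CKO 1 lay below WT 1 beyond the decimals given here. The difference was 0.044 ± 0.041 (SE, n = 3 per group).

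Elovl3 encodes a fatty acid elongase that is induced in brown fat by cold. Its signal was low, at -3.49, -3.62 and -4.23 in the Pck1-CKO arrays and -6.80, -6.04 and -6.41 in the WT arrays. It was well above background on all 3 Pck1-CKO arrays and on none of the WT arrays. Only an approximate bound on the fold can therefore be given. By that bound it was at least 3.76-fold higher in Pck1-CKO on the processed signal. With normexp, another background correction, its log2 difference was 0.42, which is less than the bound. Here such a bound sets the Pck1-CKO mean against the lowest signal that counted as well above background on each WT array, or the probe's own value where that was higher. The bound is not strict, since a probe can lie above that lowest signal without being well above background. On WT 1 the lowest such signal was -5.44, and the brighter Adrb3 probe, at -5.35, was not well above background. The groups did not overlap, and within the Pck1-CKO arrays Pck1-CKO 3 was the lowest, as it was for Ucp1.

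The genes that turn the programme on were also higher, with a smaller difference for Dio2. Adrb3 encodes the β3-adrenergic receptor, through which noradrenaline acts on mouse adipocytes. On the log2 scale it had -0.88, -1.04 and 0.41 in the Pck1-CKO arrays, against -5.35, -2.35 and -2.92 in the WT arrays, where WT 1 was not well above background. The arrays of the genotypes did not overlap, and Pck1-CKO 3 stood above the other Pck1-CKO arrays. On WT 2 and WT 3, which measured it, the difference was 2.13, or 4.38-fold. With WT 1 at its own dim signal it was 3.04 ± 0.86, or 8.20-fold, and with normexp 1.93. Dio2 encodes the type II deiodinase, which makes active thyroid hormone inside the brown adipocyte. It had -3.02, -3.27 and -3.10 in the Pck1-CKO arrays, against -5.82, -3.97 and -4.61 in the WT arrays, again with WT 1 lowest and not well above background. The Pck1-CKO arrays lay above all WT arrays, and the difference was 1.16, or 2.23-fold, against the WT arrays that measured it. With WT 1 at its own dim signal it was 1.67 ± 0.46, or 3.18-fold, and with normexp 0.63.

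Otop1 encodes a proton channel of the otopetrin family that is also expressed in brown fat. The brighter of its 2 probes gave -1.39, -1.48 and -1.47 in the Pck1-CKO arrays, the tightest group of values among the members that differed, against -7.52, -4.76 and -4.86 in the WT arrays. WT 1 was not well above background. On the WT arrays that measured it, WT 2 and WT 3, the difference was 3.36, or 10.3-fold. With WT 1 at its own dim signal it was 4.27 ± 0.76, or 19.2-fold, and with normexp it was 1.72. The other Otop1 probe was dim and gave -5.18, -4.93 and -4.89 in the Pck1-CKO arrays, against -5.98, -5.64 and -5.05 in the WT arrays. There Pck1-CKO 1 lay below WT 3, and the difference was 0.56, or 1.47-fold, so the probes disagree on the size. Adrb3 also had a second, dimmer probe, with -4.31, -4.88 and -3.20 in the Pck1-CKO arrays and -5.80, -5.12 and -5.29 in the WT arrays. It gave a difference of 1.27, or 2.41-fold, with no overlap and with Pck1-CKO 3 highest, as on the brighter Adrb3 probe.

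Lncbate10 is a long non-coding RNA described in mouse brown adipose tissue. It was faint, at -4.16, -3.80 and -3.70 in the Pck1-CKO arrays and -7.44, -7.16 and -7.86 in the WT arrays. None of the WT arrays was well above background. By the same approximate bound, on the processed signal, it was at least 3.49-fold higher in Pck1-CKO, with no overlap. With normexp its difference was 0.57 on the log2 scale, which is less than the bound.

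**Figure D1:**
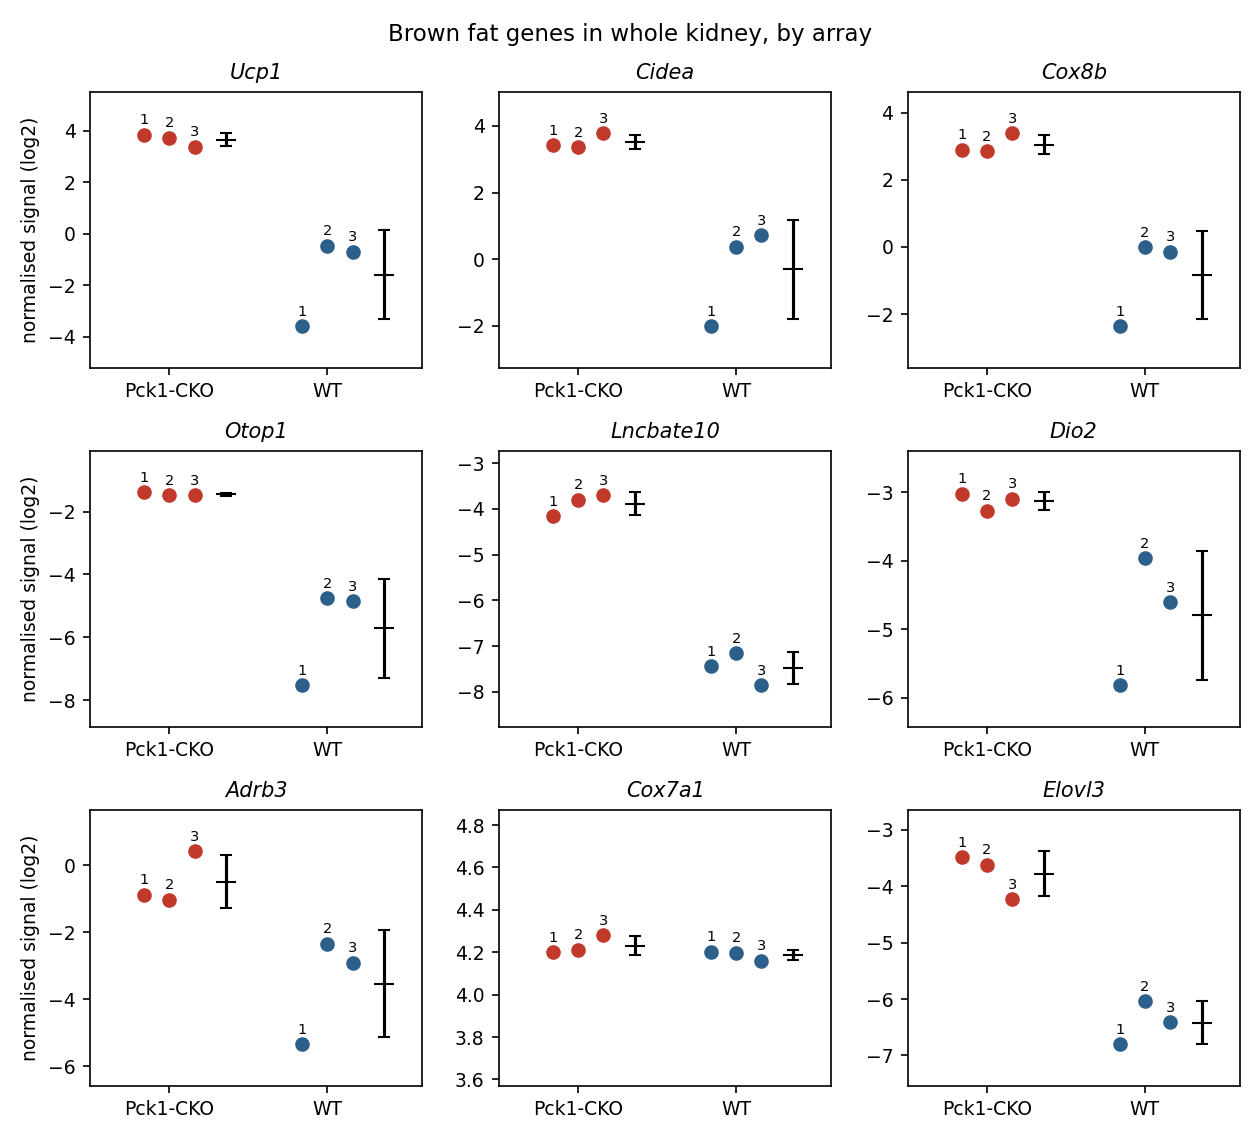
Normalised log2 signal of the 9 genes on each array (y axis, 0 is the array's 75th percentile), with Pck1-CKO arrays left of WT arrays in each panel, points for arrays, numbers for the sample and bars for the group mean ± SD (n = 3), on a y axis of its own for each gene. Of the 9 genes, 8 had every Pck1-CKO array above every WT array, and Cox7a1 had not. WT values of Lncbate10 and Elovl3 were not well above background and have no order.

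Over the 9 genes the median log2 difference was 3.04 with Lncbate10 and Elovl3 at their bounds, and 3.60 with their fitted values, which set the dim WT arrays at their own signal, against 0.0091 over all 17136 genes tested. The 3.04 is the fitted value of Adrb3. In both medians Adrb3, Otop1 and Dio2 still have WT 1 at its own dim signal. Among them 6 (Ucp1, Cidea, Cox8b, Otop1, Lncbate10 and Elovl3) were past an adjusted p of 0.05 in the limma fit, against 4.34% of all genes tested that were higher in Pck1-CKO at that threshold. The groups did not overlap for 8 of 9, with Pck1-CKO above, as for 21.9% of all genes. Since this contrast chose the genes, nothing is read from either count. Adrb3 and Dio2 did not overlap but were not past the threshold. Over all genes 743 were higher and 634 were lower, and with arrays scaled to the median of the probes well above background on all arrays 1218 were higher and 568 lower.

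The arrays of 1 genotype were not alike in these genes, and the order of the arrays was not the same for every gene. For Cidea, Cox8b, Adrb3, Lncbate10 and Cox7a1 the highest Pck1-CKO array was Pck1-CKO 3. For Ucp1 and Elovl3 the same array was the lowest of its group, and for Otop1 and Dio2 it lay between the others. In the WT group, WT 1 lay between 1.53 (Dio2) and 3.0 (Ucp1) below the mean of the other WT arrays for the 6 genes Ucp1, Otop1, Adrb3, Cidea, Cox8b and Dio2, although for Otop1, Adrb3 and Dio2 its value was not well above background and the gap is that of the processed signal. As a description over 6 arrays, which share the group difference, Ucp1 and Otop1 had a Pearson r of 0.998, and 0.992 after the group means were taken out. Both r include WT 1, which was low for both genes, and neither was computed without it.

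Adipocyte markers moved with these genes. All 13 markers of the adipocyte list (Adipoq, Plin1, Cfd, Lep, Retn, Cidec, Fabp4, Car3, Plin4, Lipe, Pparg, Trarg1 and Acvr1c) were tested, and 13 were well above background on all Pck1-CKO arrays and 11 on all WT arrays, the exceptions being Plin1 (2 of 3 WT arrays) and Acvr1c (1 of 3). Of these, 6 passed the threshold, all of them higher: Pparg, the master regulator of fat cell formation (0.98), Fabp4, a fatty acid carrier (1.25), the lipase Lipe (0.59), the lipid droplet protein Plin4 (1.88), Car3, a carbonic anhydrase (2.28), and Trarg1, a regulator of glucose transporter traffic (1.21). None passed as lower. The defining adipocyte genes Adipoq (2.94), Cfd (3.22), Plin1 (3.21) and Cidec (2.83) had larger differences but wider spread and did not pass (adjusted p = 0.0781, 0.0681, 0.0549 and 0.0763). With 1 array left out, their differences ranged from 2.07 to 3.54, 2.26 to 3.77, 2.37 to 3.71 and 1.97 to 3.40, in that order. The median difference of the list was 2.28, and 12 of 13 did not overlap between the genotypes, with Pck1-CKO above, Lep being the exception at 0.04. Of all genes tested, 4.34% passed as higher and 21.9% did not overlap with Pck1-CKO above. The list was chosen with earlier results of these data known. The summed scaled signal of the list was 95.8 to 153 in the Pck1-CKO arrays and 17.9 to 37.8 in the WT arrays, and WT 1 was the lowest. The mean of their normalised log2 signals was 0.77, 0.60 and 1.30 in the Pck1-CKO arrays, against -2.09, -0.55 and -0.81 in the WT arrays. Thus WT 1 was low and Pck1-CKO 3 high in adipocyte markers as in Cidea, Cox8b and Adrb3. With the group means taken out, the r over 6 arrays with this mean was 0.997 for Adrb3, 0.974 for Cox8b, 0.929 for Cidea, 0.914 for Dio2, 0.903 for Otop1, 0.851 for Ucp1, 0.327 for Elovl3, 0.145 for Cox7a1 and 0.141 for Lncbate10. These r include WT 1, which deviated from its group mean by -2.00 for Ucp1 and -1.81 for Adrb3. They were not computed without it, and for Adrb3, Otop1 and Dio2 its value was not well above background. Within the Pck1-CKO arrays, Ucp1 was lowest on Pck1-CKO 3, where the adipocyte mean was highest. The part of adipocyte markers in the differences of the 9 genes was not tested.

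**Figure D2:**
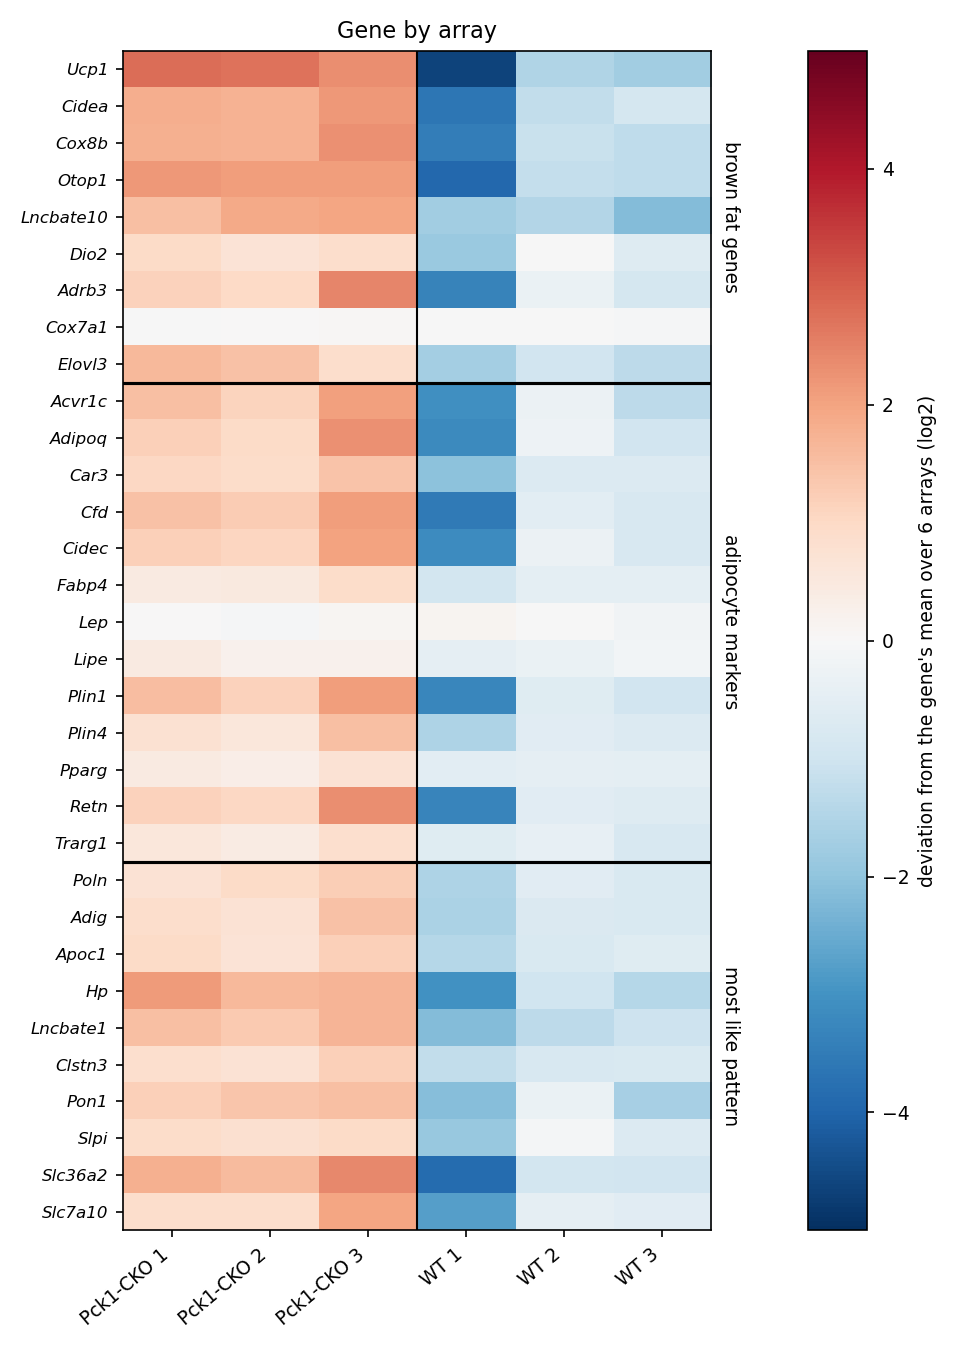
Deviation of each gene from its mean over the 6 arrays (log2, colour scale, red above and blue below), arrays in columns with Pck1-CKO left of WT, for the 9 genes, adipocyte markers and the genes most like them. Most rows are red in the Pck1-CKO columns and darkest blue in WT 1, while Cox7a1 is pale throughout.

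Each gene was therefore also set against Adipoq, a hormone gene of all mature adipocytes, on the same array. Adipoq itself was higher by 2.94 in Pck1-CKO, with adjusted p = 0.0781. Only the change of a difference is read here, since levels of different probes cannot be compared. The log2 difference of Ucp1 to Adipoq was 2.42, 2.53 and 0.85 in the Pck1-CKO arrays, against -0.63, -0.44 and 0.00 in the WT arrays. The Pck1-CKO arrays stood above all WT arrays, and Pck1-CKO 3 was closest to them. The change was 2.29, and it was 2.15 without WT 1 and 2.83 without Pck1-CKO 3. For Adrb3 the same difference was -2.30, -2.23 and -2.11 in the Pck1-CKO arrays and -2.39, -2.32 and -2.22 in the WT arrays. These overlapped, and the change was 0.10, but it was -0.61 with normexp and -0.79 with the mean of the Adrb3 probes. The changes for the other genes measured on at least some WT arrays were 0.94 for Cox8b (no overlap), 0.89 for Cidea (overlap), 1.33 for Otop1 (no overlap), -2.90 for Cox7a1, which hardly differed while Adipoq did, and -1.27 for Dio2 (no overlap, with all Pck1-CKO arrays below the WT arrays). For Otop1 the sign depended on the processing, and the change was -0.81 with normexp and -0.53 with the mean of its probes. Lncbate10 (0.66) and Elovl3 (-0.30) rest on WT signals not well above background. The choice of adipocyte gene also mattered. Set against Cfd, the changes were 2.01 for Ucp1, 1.04 for Otop1, 0.66 for Cox8b, 0.60 for Cidea, -0.19 for Adrb3 and -1.55 for Dio2. Set against the mean of all 13 adipocyte markers, they were 3.19 for Ucp1, 2.22 for Otop1, 1.84 for Cox8b, 1.79 for Cidea and 1.0 for Adrb3, each with no overlap, and -0.37 for Dio2, with overlap. Of these genes, Ucp1 had the largest increase by each of the 3 measures.

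**Figure D3:**
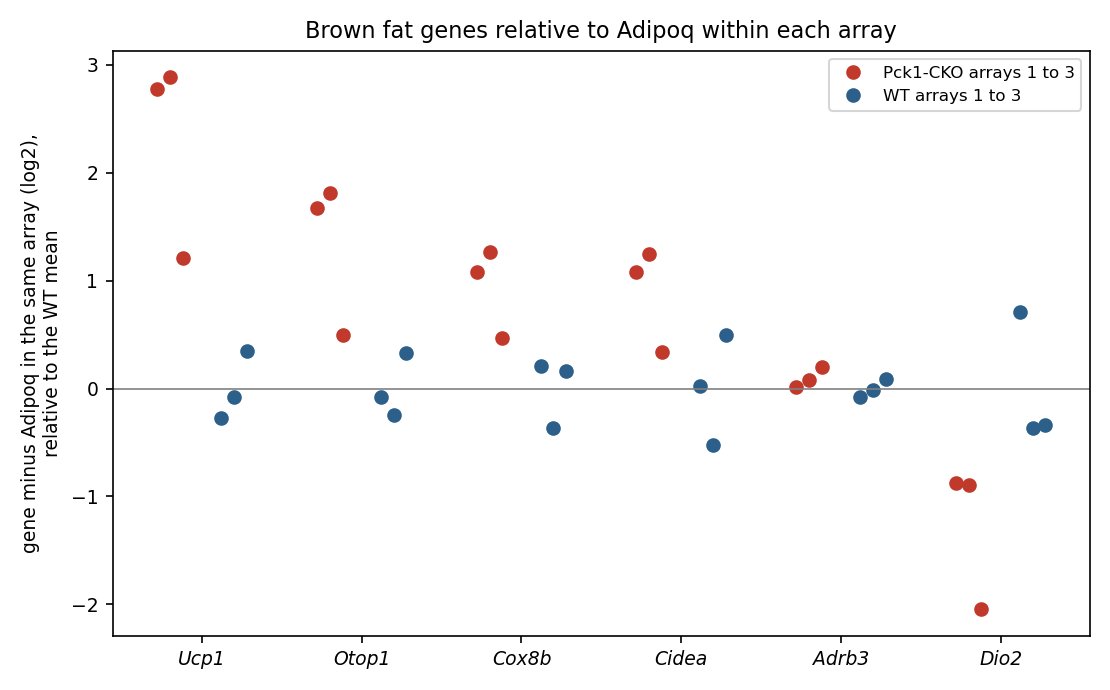
Log2 difference of a gene to Adipoq on the same array, relative to the mean of the WT arrays (y axis), for Ucp1, Otop1, Cox8b, Cidea, Adrb3 and Dio2, 1 point per array, with Pck1-CKO arrays (red) left of WT arrays (blue). The Ucp1 difference lies higher in all 3 Pck1-CKO arrays, by 2.29 on average, and that of Adrb3 overlaps between the genotypes.

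Differences of close relatives of the 9 genes were mostly small, and Cidec had the largest. Of 23 paralogues, 20 were tested, while Cox8c, Otop2 and Elovl4 were too dim. Of these 20, 1 rose, the kidney and liver deiodinase Dio1 (0.64 ± 0.12, adjusted p = 0.0392), and 1 fell, the elongase Elovl2 (-0.54 ± 0.069, adjusted p = 0.0224), against 4.34% higher and 3.70% lower among all genes. Their median was 0.04. Cidec, which builds the large lipid droplets of white adipocytes and is also in the adipocyte list, had a difference of 2.83 ± 0.77 and did not pass (adjusted p = 0.0763). The uncoupling protein relatives Ucp2 and Ucp3 differed by -0.23 (adjusted p = 0.35) and -0.20 (adjusted p = 0.374). Adrb1, which encodes the β1-adrenergic receptor, differed by 0.21 (adjusted p = 0.100). The forms of the oxidase subunits that most tissues use, Cox8a and Cox7a2, differed by -0.01 each.

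Other markers of brown and beige adipocytes were mixed. Of 26 listed, 25 were tested, 3 rose and 1 fell, and the median difference was 0.05. For this list and those below, the shares over all genes tested were 4.34% higher and 3.70% lower. Those that rose were S100b, a calcium-binding protein of brown fat and of Schwann cells (1.34 ± 0.096, adjusted p = 0.00882), Kcnk3, a potassium channel of brown adipocytes (1.49 ± 0.12, adjusted p = 0.0125), and Clstn3, whose locus also gives an adipocyte-specific lipid droplet form (1.85 ± 0.17, adjusted p = 0.0149). Acaa2, an enzyme of mitochondrial fatty acid oxidation, fell (-0.35, adjusted p = 0.0485). Slc36a2, an amino acid transporter used as a brown fat surface marker, had a difference of 3.83 but missed the threshold (adjusted p = 0.0506), followed by Acot11 (0.26, adjusted p = 0.0547) and Gk (0.25, adjusted p = 0.0599). With 1 array left out, the Slc36a2 difference ranged from 2.86 to 4.33.

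Transcription regulators of the brown adipocyte were also mixed. Of 30 listed, 26 were tested, 2 rose and 1 fell, with a median of -0.05. At an unadjusted limma p under 0.05 there were 9 higher and 3 lower. In 10 the Pck1-CKO arrays all lay above the WT arrays, against 21.9% of all genes. In 6 they all lay below, against 16.4% of all genes. Pparg rose by 0.98 ± 0.10 (adjusted p = 0.0154) and Ebf3, a relative of the brown fat determinant Ebf2, by 0.89 ± 0.14 (adjusted p = 0.0310), and Zfp516 fell (-0.46 ± 0.079, adjusted p = 0.0349). Below the threshold, the values were 0.63 for Cebpd (adjusted p = 0.0553) and 0.38 for Cebpa (adjusted p = 0.0634), both factors of fat cell formation. The coregulators Prdm16 and Ppargc1a, singled out after their values were seen, differed by -0.04 (adjusted p = 0.764) and -0.20 (adjusted p = 0.0970). The lineage factors Ebf2, Zic1 and Tbx15, also singled out afterwards, were well above background on at most 1 array and were not tested, and Plac8 was not matched to a probe.

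In adrenergic and cAMP signalling, 23 of 24 genes were tested, 1 rose and 0 fell (unadjusted limma p under 0.05: 7 higher, 0 lower), with a median of 0.05. The gene that rose was Prkar2b, the regulatory subunit of protein kinase A that is prominent in fat (1.75 ± 0.21, adjusted p = 0.0209). In fatty acid supply and lipolysis, 29 of 30 were tested, 4 rose and 1 fell, with a median of 0.09. Fabp4 rose by 1.25 ± 0.18 (adjusted p = 0.0280), the fatty acid transporter Cd36 by 0.50 (adjusted p = 0.0283), Lipe, which encodes hormone-sensitive lipase, by 0.59 (adjusted p = 0.0372) and Gpihbp1, which holds lipoprotein lipase on capillaries, by 0.44 (adjusted p = 0.0380). Mgll, the lipase of the last step of lipolysis, fell (-0.25, adjusted p = 0.0294). Plin1, the gatekeeper of the adipocyte lipid droplet, differed by 3.21 with adjusted p = 0.0549. As stated above, it was not well above background on every WT array. With 1 array left out, its difference ranged from 2.37 to 3.71.

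Genes of heat production without UCP1, such as calcium and creatine cycling, were 14 tested of 16, of which 0 rose and 1 fell (unadjusted limma p under 0.05: 0 higher, 4 lower), with a median of -0.10. The gene that fell was Ryr1, the muscle calcium release channel (adjusted p = 0.0141). Ryr1 was well above background on 0 Pck1-CKO arrays and, by an approximate bound of the same kind, at least 1.54-fold higher in WT. Of the cytochrome c oxidase subunits, 13 tested genes were not among the 9, and 1 of them rose, Cox6a2, which is like Cox8b and Cox7a1 a muscle form (0.84 ± 0.14, adjusted p = 0.0340). Their median was -0.01. Of 16 proteins secreted by brown fat, 13 were tested and 1 rose, Nrg4, a growth factor released by brown adipocytes (1.25 ± 0.22, adjusted p = 0.0349), while Bmp8b, Fgf21 and Il6 were not well above background on any array. Over these pathway lists and the paralogues together, without the 9 genes, 13 rose and 5 fell. Of all genes tested, 4.34% were higher and 3.70% lower at that threshold. Many of these calls depended on single arrays: of 32 named genes past the threshold, 1 stayed past it without Pck1-CKO 1, 1 without Pck1-CKO 2, 2 without WT 2 and 8 without WT 1, and none turned its direction.

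**Figure D4:**
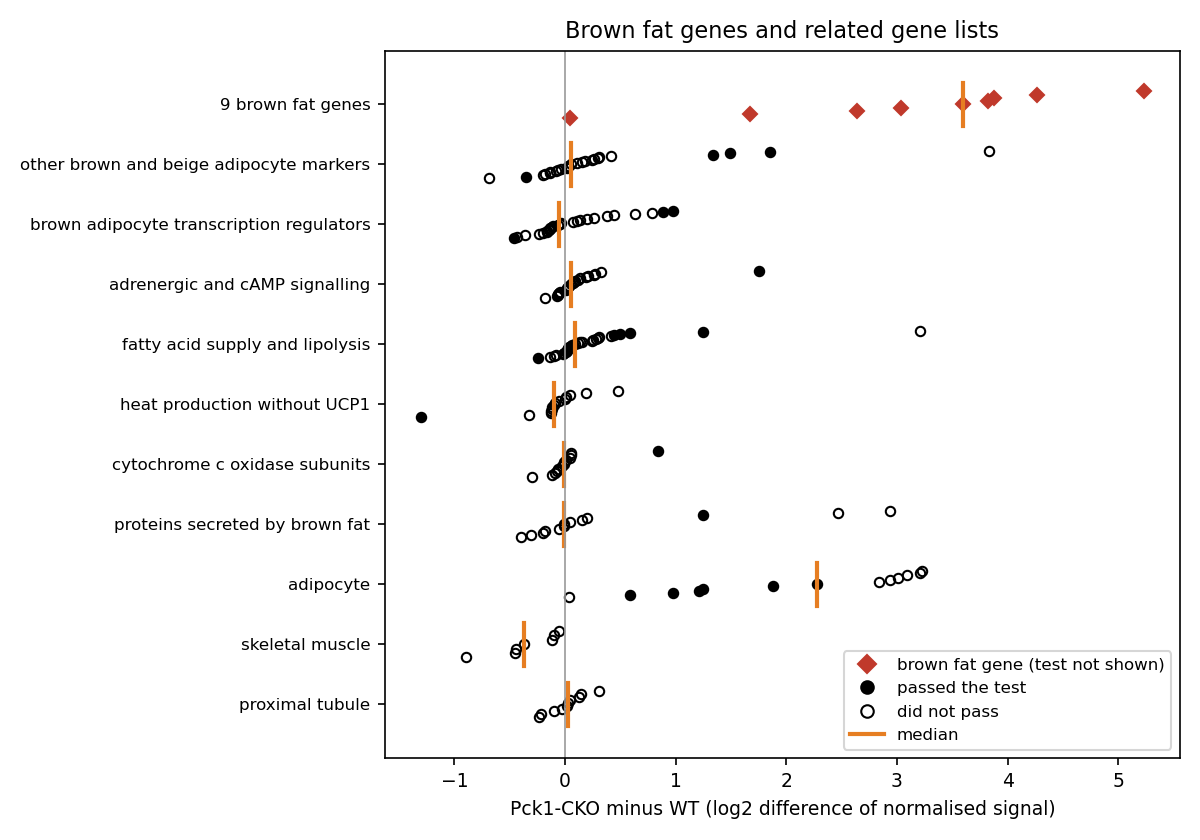
Log2 difference, Pck1-CKO minus WT (x axis), of each tested gene in the 9 genes, 7 pathway lists and the markers of adipocytes, skeletal muscle and proximal tubule, 1 point per gene, with a bar at the list's median. Filled black points passed the adjusted threshold, and red diamonds are the fitted values of the 9 genes, for which no test is drawn. The median drawn for the 9 genes is 3.60 (3.04 with Lncbate10 and Elovl3 at their bounds), that of adipocyte markers is 2.28, and those of the pathway lists lie near 0.

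Markers of other cell types were examined in the same way. Of the skeletal muscle markers, which share Cox8b and Cox7a1 with brown fat, 7 of 12 were tested, and 0 passed in either direction (unadjusted limma p under 0.05: 0 higher, 2 lower). Ckm, Myh1, Myh4, Myh2 and Mb were well above background on at most 1 array, and the summed scaled signal of the list was 7.25 to 8.43 in the Pck1-CKO arrays and 9.17 to 11.1 in the WT arrays. Of the adrenal markers, 6 of 10 were tested and 0 passed (0 higher and 1 lower unadjusted), and Cyp11b1, Cyp11b2, Dbh and Chga were well above background on 0 arrays. Of the markers of sympathetic nerves and Schwann cells, 8 of 10 were tested and 1 rose, S100b, while Th, the first enzyme of noradrenaline synthesis, differed by -0.02. Endothelial markers gave 8 tested and 0 passed (0 higher and 2 lower unadjusted), with a median of -0.13. Among markers of other nephron segments, Aqp2 of the collecting duct rose by 0.63, and Slc4a1 (-0.88), Slc12a3 (-0.43) and Atp6v1g3 fell. The part of these cell types in the differences of the 9 genes was not tested.

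The genes whose signal over the 6 arrays was most like the mean of the 9 genes, each scaled to the same spread, were sought among 113 genes with an SD of at least 1 on the log2 scale. By Pearson r over 6 arrays they were Poln (0.998), Car3 (0.992), Adig (0.991), Apoc1 (0.986), Hp (0.986), Lncbate1 (0.985), Clstn3 (0.984), Pon1 (0.984), Acvr1c (0.984) and Plin4 (0.983). Lncbate1 is, like Lncbate10, a long non-coding RNA named from brown adipose tissue, and Adig encodes adipogenin, a small protein of fat cells. With the group means taken out, so that only differences among arrays of 1 genotype count, the order was Slpi (0.985), Acvr1c (0.983), Cidec (0.977), Cfd (0.966), Adipoq (0.963), Plin1 (0.962), Poln (0.959), Slc36a2 (0.948), Car3 (0.939) and Slc7a10 (0.932). Acvr1c, Poln and Car3 stood in both lists. These are descriptions over 6 arrays that share the genotype difference and, for the second list, the low WT 1 array. Several genes fell below the lowest signal well above background, which was -5.44 on WT 1, -5.82 on WT 2 and -5.81 on WT 3. Lncbate1 did so on all WT arrays, Pon1 and Acvr1c on WT 1 and WT 3, and Poln, Slc36a2 and Slc7a10 on WT 1. Their SD and r rest in part on such dim values, as does the mean of the 9 genes.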

How the data were processed

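Per the labels' protocols, whole kidney RNA was labelled with Cy3 for 1-colour Agilent arrays, 3 of Pck1-CKO and 3 of WT. The deposited scanner files hold linear intensity values from Agilent Feature Extraction 10.7.1.1 (per the submitters' processing notes), and the processed signal in them was already background-subtracted, per the file headers. The authors' deposited value table holds a linear ratio, which is the processed signal over a single factor for each array, to within 0.002 plus 0.0005 of the value for 99.8% to 99.9% of probes. Its scale and direction are thereby known, and the origin of the factors was not stated. Its column medians were 0.100, 0.098 and 0.099 for Pck1-CKO and 0.105, 0.104 and 0.103 for WT.

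From the deposited intensity the log2 was taken and scaled to the 75th percentile of all probes other than controls on the array, and spots with outlier flags (46 to 94 per array) were left out. Summed signals of lists are on the linear scale, relative to that percentile. A probe was kept if it stood well above background on 3 or more of 6 arrays, which held for 38371. Probes were named through RefSeq accessions in a table of GRCm38.p6, and 34675 had 1 symbol and 21930 none. The brightest kept probe stood for a gene. The test was the moderated linear model of limma 3.58.1 (lmFit, eBayes; R 4.3.3), 2-sided, with Benjamini-Hochberg adjustment over 17136 genes and a threshold of 0.05. SE are from that fit. The procedure was tested on simulated data.

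The 9 genes and all lists were chosen with earlier results of these data known, so no list is independent evidence. Named were the 9 genes, Pck1, paralogues, markers, up to 6 passing and 3 other genes with the lowest p per pathway list, and 10 genes by each measure of likeness. Some genes of these lists are not reported here. Alternatives covered scaling, background correction (normexp with an offset of 50, on median signals, since these are what the files hold), the value table, filters, probes, flags, variance model, array weights, a replicate block and left-out arrays. All arrays shared slide 1 and scan 1, and each genotype filled 1 row of the slide, so the row on the slide and the genotype cannot be told apart. Arrays of the same number in each genotype did not deviate together (r of -0.00097, -0.11 and -0.023 over 17136 genes), so the numbers were not used as pairs.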

Additional observations from a re-analysis of the deposited data

How the results depend on the processing

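The median difference of the 9 genes was 3.60 at fitted values, which is that of Lncbate10, and 3.04 with Lncbate10 and Elovl3 at their bounds. The latter is that of Adrb3, with WT 1 at its own dim signal. At fitted values it stayed positive under every alternative that gave a value. It was 1.72 with normexp and 2.64 with the mean of a gene's probes, and 2.97 to 3.76 with 1 array left out. A filter on all 6 arrays left 4 of the 9 genes and gave no such value. Ucp1 lay between 4.23 and 5.79 under all 19 alternatives, while with normexp Otop1 was 1.72, Dio2 0.63, Lncbate10 0.57 and Elovl3 0.42. Relative to Adipoq, Otop1 turned to -0.81 with normexp and -0.53 with the mean of its probes, and Elovl5 turned to -0.39 (limma adjusted p = 0.0472) with the probe of lowest p. Of the 9 genes, 6 were past the threshold, 8 with normexp, 2 without a filter, 3 with the filter on all 6 arrays, 0 with the replicate block, 5 without WT 1, 3 without Pck1-CKO 3, and 1 without any 1 of Pck1-CKO 1, Pck1-CKO 2 and WT 2.

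Counts of genes depended more on the settings. The 743 higher and 634 lower genes became 1218 higher when scaled to the median of probes well above background on all arrays, 340 and 219 without scaling, 61 and 81 without a filter, 1682 and 1149 with a trended, robust variance, 3285 and 2614 with array weights, and 1158 and 1034 with the probe of lowest p. With 1 array left out they ranged between 16 and 779 higher and between 9 and 806 lower. They were 16 and 9 without Pck1-CKO 1, 19 and 10 without Pck1-CKO 2, 39 and 31 without WT 1, and 22 and 13 without WT 2. Pathway genes that rose (13) were 23 with that scaling, 26 with normexp, 4 without a filter, 26 with the trended variance, 45 with weights and 23 with the probe of lowest p, and 0 to 20 with 1 array left out. Those that fell (5) were 2 without scaling, 1 without a filter, 3 with the mean of probes, 14 with the trended variance, 20 with weights and 8 with the probe of lowest p, and 0 to 8 with 1 array left out. Of 32 named genes that passed, 1 passed without Pck1-CKO 1, 1 without Pck1-CKO 2, 8 without WT 1, 2 without WT 2 and 8 without a filter, and 0 reversed. The cause was not tested.

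With the replicate number as a block, 3 genes were higher and 1 lower in limma (2694 and 2473 at an unadjusted p under 0.05), and 0 pathway genes rose and 0 fell (35 and 17 unadjusted). Differences of means were the same under the block. The arrays of the same number share only a number, and for no number were the Pck1-CKO and WT arrays each other's best match. Elovl3 and Lncbate10 have only approximate bounds, since signal over background limits them in WT.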
